A study of Mus musculus with 17 samples.

Results

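The chemokine receptors examined here were 7 genes chosen by their symbols from a table of 21683 gene rows: Ccr1, Ccr2, Ccr3, Ccr7, Ccrl2, Cx3cr1 and Cxcr4. Each symbol matched 1 row. RNA-seq had been performed on cultured mouse peritoneal macrophages in 17 libraries of 3 groups, and the values are TPM (transcript abundance per fixed library total), a level already corrected for transcript length. All mice were 8-week-old C57BL/6 animals that carried loxP-flanked Ikbkb, the gene of IKKβ, a kinase that activates NF-κB. IKKβ F/F cells received PBS (F/F PBS, n = 6, libraries 1 to 6) or 100 nM HIV protein Tat (F/F Tat, n = 6, libraries 7 to 12) for 12 h, and IKKβ ΔMye cells received Tat in the same way (ΔMye Tat, n = 5, libraries 19 to 23). In the ΔMye mice, a single Cre allele knocked into the lysozyme gene Lyz2 deletes Ikbkb in myeloid cells, so these mice also differ from F/F mice at the Lyz2 locus. Macrophages were drawn to the peritoneum with 1 mL of 3% thioglycollate and were left to attach for 4 h before treatment. ΔMye cells given PBS were not analysed here, so whether the response to Tat itself differs between genotypes could not be tested. The labels do not say whether libraries of a group came from separate mice, but a heat map legend of the study calls its columns mouse biological replicates. The p-values measure only the spread between these libraries.

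Chemokine receptors are membrane proteins with 7 transmembrane passes, and most of them couple to inhibitory G proteins that steer leukocyte migration along gradients of secreted ligands. Ccr2 brings inflammatory monocytes to tissue along Ccl2, Ccr1 answers Ccl3, Ccl5 and related ligands, Ccr3 is best known from eosinophils and their eotaxin ligands, and Ccr7 guides mature dendritic cells and lymphocytes to lymph nodes along Ccl19 and Ccl21. Cx3cr1 binds fractalkine and marks patrolling monocytes and many resident macrophages, and Cxcr4 holds leukocytes where Cxcl12 is made. Ccrl2 is an atypical receptor that binds chemerin without the usual G protein signal and presents it to neighbouring cells.

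Of the 7 genes, 5 lie on chromosome 9 (GRCm38, GENCODE M21): Ccrl2 (chr9:111054486-111057519, minus strand), Cx3cr1 (chr9:119901616-120069879, minus), Ccr1 (chr9:123962124-123968692, minus), Ccr3 (chr9:124021972-124031689, plus) and Ccr2 (chr9:124101950-124113557, plus). Ccr1, Ccr3 and Ccr2 lie within 151 kb, with gaps of 53.3 kb and 70.3 kb between them. Ccr7 lies on chr11:99144196-99155077 (minus) and Cxcr4 on chr1:128588199-128592293 (minus). The long Cx3cr1 model overlaps 9 other annotated genes, and the strand setting of the quantification is not given in the sources used here. Shared sequence between genes was limited, since 3.41% of the 31-base words of Ccr2 transcripts and 1.75% of those of Cx3cr1 also occurred in transcripts of other genes, against at most 0.642% for the other 5 receptors and 0 for Ccr7 and Cxcr4.

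The sequences before the start sites of 4 receptors are shown because these genes behaved differently: Ccrl2 rose and Cxcr4 fell by the most among the tested receptors, Ccr1 overlapped in all groups, and Ccr3 was lower in ΔMye Tat than in both F/F groups. Each run is the 250 bases before a RefSeq transcript start (GRCm38.p6), read 5′ to 3′ on the strand of the gene, and the start is the base that follows the run. Ccrl2 has 3 annotated starts, of which the outermost is shown. Capitals mark matches on either strand to GGGNNNNNCC (a κB core), to the stricter published NF-κB consensus, to TGANTCA (AP-1) or to TATAAA, a core promoter element.
Ccrl2, chr9:111057519-111057768: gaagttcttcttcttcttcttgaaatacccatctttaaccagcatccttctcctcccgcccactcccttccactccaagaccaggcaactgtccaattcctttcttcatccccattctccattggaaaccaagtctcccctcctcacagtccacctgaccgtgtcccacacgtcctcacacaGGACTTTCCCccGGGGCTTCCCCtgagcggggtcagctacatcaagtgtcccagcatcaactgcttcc
Cxcr4, chr1:128592300-128592549: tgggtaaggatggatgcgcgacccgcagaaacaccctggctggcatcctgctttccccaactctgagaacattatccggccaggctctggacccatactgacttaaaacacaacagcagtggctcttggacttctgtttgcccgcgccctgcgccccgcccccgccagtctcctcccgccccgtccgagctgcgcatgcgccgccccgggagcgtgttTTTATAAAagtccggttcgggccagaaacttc
Ccr1, chr9:123968693-123968942: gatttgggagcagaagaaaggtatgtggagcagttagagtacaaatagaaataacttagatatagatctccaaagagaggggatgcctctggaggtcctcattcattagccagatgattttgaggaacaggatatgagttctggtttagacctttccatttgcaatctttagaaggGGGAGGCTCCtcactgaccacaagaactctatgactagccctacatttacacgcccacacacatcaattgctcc
Ccr3, chr9:124021721-124021970: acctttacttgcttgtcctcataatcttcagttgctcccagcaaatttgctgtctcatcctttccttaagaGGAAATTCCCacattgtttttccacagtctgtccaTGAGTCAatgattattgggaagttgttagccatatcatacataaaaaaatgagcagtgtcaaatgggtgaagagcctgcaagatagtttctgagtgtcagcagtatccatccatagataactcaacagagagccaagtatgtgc

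In the Ccrl2 run, 3 core matches lay close together, at 68, 56 and 55 bases before the start, and GGGGCTTCCC among them also met the NF-κB consensus. The Ccr1 run held GGGAGGCTCC at 74 bases and the Ccr3 run GGAAATTCCC at 179 bases before the start, and both met the consensus as well. Ccr3 also held TGAGTCA at 144 bases, and Cxcr4 held overlapping TATAAA matches on the opposite strands at 30 and 32 bases before the start and no κB core. Over 32817 RefSeq windows of the same length, the consensus was found in 7.25%, the κB core in 45.8%, TATAAA in 12.4% and the AP-1 letters in 6.75%. In all, 6 of the 7 receptors had 8 windows in the RefSeq table. Neither the inner Ccrl2 windows nor the Ccr2 window held any of these motifs, and the Cx3cr1 window held a core match alone, GGTTTGCCCC at 174 bases. Ccr1 and Ccrl2 both carried a consensus match and differed widely in their change with Tat, so these matches are given as a description of the letters only.

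The 7 macrophage markers summed to between 3421 and 4181 TPM in every library. Cd68 was the largest part, averaging 2596, 1744 and 1886 TPM in F/F PBS, F/F Tat and ΔMye Tat. The sum hides opposite changes of single markers with Tat in F/F cells. Csf1r fell from 381 ± 32.3 to 64.0 ± 6.51 TPM, while Cd14 rose from 203 ± 6.64 to 842 ± 20.2 TPM. Dendritic cell markers (6 genes) summed to at most 2.12 TPM in any library, and each averaged under 1 TPM in every group. Eosinophil markers (5 genes) summed to between 0.671 and 1.37 TPM, with Epx at 0 in every Tat library and Prg2 at 0 in every PBS library. Over all libraries, mast cell markers (6 genes) summed to 23.6 to 44.8 TPM, neutrophil markers (6) to 66.6 to 106 TPM, NK cell markers (5) to 4.27 to 8.39 TPM and mesothelial markers (5) to 0.999 to 4.75 TPM. Ikbkb averaged 26.8 ± 1.99 TPM with PBS and 23.2 ± 1.44 TPM with Tat in F/F cells, and 16.4 ± 2.59 TPM in the ΔMye cells (SD), and it was lower in ΔMye Tat than in F/F Tat by a log2 difference of -0.51 (limma, adjusted p = 4.51e-05). Ikbkb transcripts therefore remained in the ΔMye libraries. The depth behind each TPM value is unknown.

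Across all tested genes the Tat libraries were shifted as a whole. The median log2 difference of the 10451 tested genes, which reached 1 TPM in at least 5 of the 17 libraries, was -0.65 for Tat against PBS in F/F cells and 0.22 for ΔMye against F/F cells under Tat, and after median-ratio scaling it was -0.03 and 0.01. A gene was called here at a limma adjusted p under 0.01 with a fold change over 3. With Tat, 545 genes were called higher and 2031 lower, against 889 and 1020 after scaling. Between the Tat groups, 46 were called higher and 33 lower, against 27 and 63 after scaling. All fold changes below are of TPM + 0.1, on the log2 scale, and the scaled value is given for the receptors, and for the listed genes named, where it alters a direction or a call.

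Of the 7 receptors, 6 passed the filter and were tested, and Cx3cr1 was not, because only 3 libraries reached 1 TPM. With Tat, Ccrl2 and Ccr7 were called higher and Ccr2 and Cxcr4 lower. The background of these calls was 5.21% of tested genes for higher and 19.4% for lower. The groups of these 4 receptors did not overlap, as was so for 15.3% of tested genes that were higher and 62.4% that were lower. Ccr1 and Ccr3 were not called. When ΔMye Tat was set against F/F Tat, no receptor was called in either direction, against a background of 0.44% higher and 0.316% lower, but by the adjusted p alone Ccrl2, Ccr7 and Ccr3 were lower, against a background of 8.87%, and none was higher, against 38.8%. Ccr3 entered this count only through F/F libraries, as all 5 of its libraries at 1 TPM were F/F and none was ΔMye, so its place in the count was favoured by the filter. These 3 were also the receptors with an unadjusted limma p under 0.05. The same 3 had no overlap between the Tat groups, against 8.01% of tested genes lower and 28.6% higher without overlap.

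**Figure D1:**
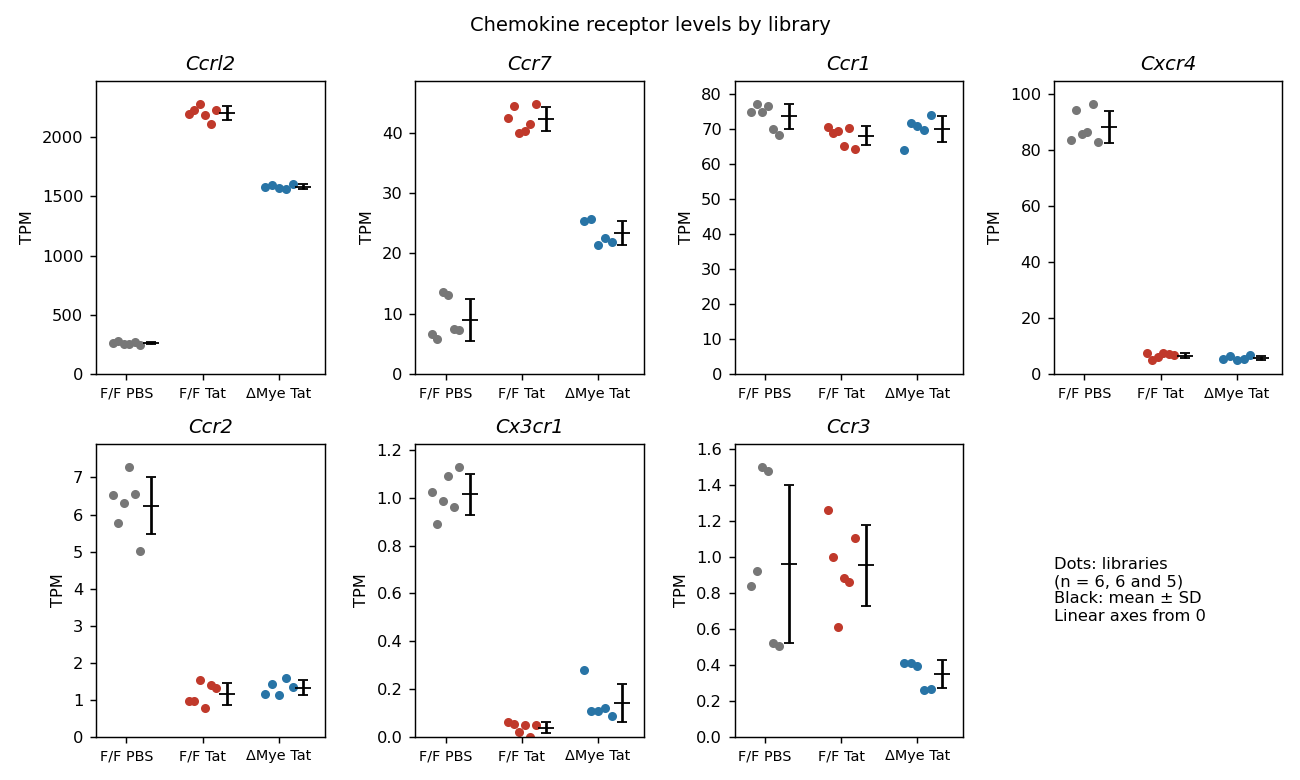
Level in TPM (linear axes from 0) of the 7 receptors in each library of F/F PBS (grey, n = 6), F/F Tat (red, n = 6) and ΔMye Tat (blue, n = 5), with the group mean ± SD in black. Ccrl2 and Ccr7 sit highest in F/F Tat and between the other groups in ΔMye Tat, whereas Cxcr4 and Ccr2 drop in both Tat groups and Ccr1 stays between 63.9 and 76.9 TPM.

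Ccrl2 was the most abundant of the receptors in every group. Its level was 259, 279, 257, 254, 273 and 249 TPM in libraries 1 to 6 (F/F PBS), 2196, 2232, 2275, 2182, 2108 and 2225 TPM in libraries 7 to 12 (F/F Tat), and 1577, 1598, 1570, 1561 and 1604 TPM in libraries 19 to 23 (ΔMye Tat). The same library order holds for each receptor below. The 3 groups were separate, with every F/F Tat library above every ΔMye Tat library and both above F/F PBS. Mean levels were 262 ± 11.6, 2203 ± 56.5 and 1582 ± 18.5 TPM (SD, n = 6, 6 and 5), so that Tat raised the mean 8.42-fold in F/F cells (log2 difference 3.07, SE 0.03, limma adjusted p = 5.21e-25). ΔMye Tat stood at 71.8% of F/F Tat, a log2 difference of -0.48 (SE 0.03, limma adjusted p = 8.00e-11), and remained 6.05-fold above F/F PBS. The spread between libraries was narrow, and each alternative tried kept both differences past the adjusted p of 0.01, at 2.86 to 3.71 and at -0.69 to -0.41, the libraries left out in turn apart. With those left out in turn, they ranged from 3.06 to 3.09 and from -0.49 to -0.47.

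Ccr7 followed the same order of groups at a lower level. With PBS it measured 6.59, 5.84, 13.7, 13.2, 7.50 and 7.29 TPM, with Tat 42.5, 44.5, 40.0, 40.4, 41.5 and 44.7 TPM in F/F cells and 25.3, 25.7, 21.5, 22.6 and 21.9 TPM in ΔMye cells. No group overlapped another, although F/F PBS libraries 3 and 4 were well above the other 4 of that group. The mean went from 9.01 ± 3.47 TPM to 42.3 ± 2.0 TPM with Tat, a 4.69-fold rise (log2 difference 2.30, SE 0.16, limma adjusted p = 8.03e-11), and to 23.4 ± 1.99 TPM in ΔMye Tat, which was 55.4% of F/F Tat (log2 difference -0.85, SE 0.17, limma adjusted p = 3.26e-04). Against F/F PBS, ΔMye Tat was higher by 1.44 (limma adjusted p = 2.42e-07), short of the 3-fold needed for a call.

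Because Ccr7 is also a gene of lymphocytes, markers of those cells were set beside it. The 5 B cell markers summed to 25.7 and 24.5 TPM in F/F PBS libraries 3 and 4 and to between 12.4 and 18.9 TPM in the other F/F PBS libraries, and the 5 T cell markers to 5.72 and 6.91 TPM against 2.33 to 4.23 TPM. The libraries with the most Ccr7 among F/F PBS were thus those with the most lymphocyte marker RNA. In the Tat groups B cell markers summed to 11.3 to 15.04 TPM in F/F cells and 8.33 to 13.0 TPM in ΔMye cells, and T cell markers to 1.43 to 2.29 TPM and 5.19 to 7.47 TPM. Within both Tat groups the libraries with more Ccr7 were largely those with more B cell marker RNA: in F/F Tat, libraries 12, 8 and 7 were the highest for both and libraries 11, 10 and 9 the lowest, and in ΔMye Tat libraries 20, 19 and 22 led in that order for both. B cell markers, like Ccr7, tended to be higher in F/F than in ΔMye cells under Tat, and T cell markers were higher in ΔMye cells. From PBS to Tat the median B cell sum of F/F cells went from 18.2 to 13.4 TPM, while Ccr7 rose. The part of B cell RNA in the Ccr7 values was not tested. Without libraries 3 and 4, a choice made after seeing the data, the log2 difference of Ccr7 with Tat was 2.62 (limma adjusted p = 9.65e-16) and that of ΔMye Tat against F/F PBS was 1.77, which then passed the 3-fold limit. In RNA of whole cultures, fewer cells of a type and less RNA per cell cannot be told apart.

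**Figure D2:**
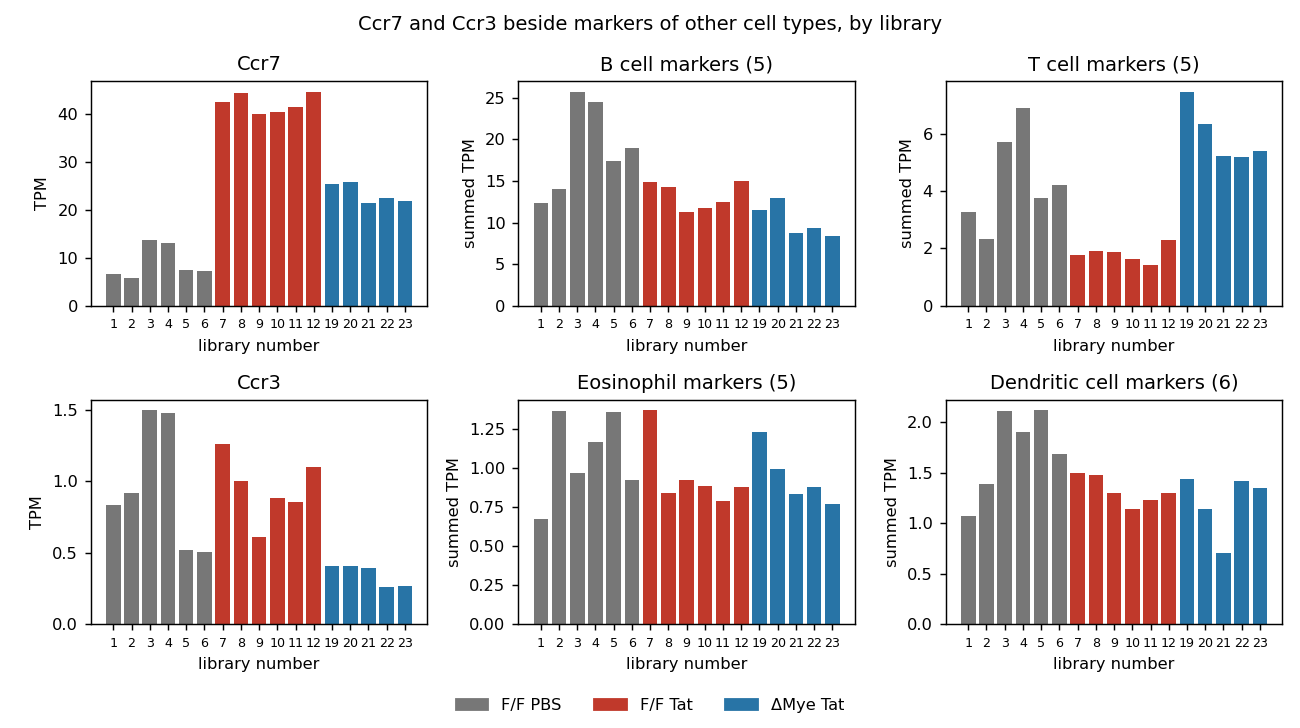
Bars from 0 give TPM of Ccr7 and Ccr3 and the summed TPM of B cell, T cell, eosinophil and dendritic cell markers in each library, coloured by group, with library numbers on the x axis. F/F PBS libraries 3 and 4 are high for Ccr7, Ccr3, B cell and T cell markers; within F/F Tat and within ΔMye Tat the B cell markers and Ccr7 have nearly the same order of libraries.

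Cxcr4 fell furthest among the tested receptors. It measured 83.4, 94.3, 85.8, 86.3, 96.2 and 82.9 TPM with PBS, then 7.36, 4.90, 6.25, 7.44, 7.10 and 6.64 TPM with Tat in F/F cells, and 5.26, 6.56, 5.03, 5.56 and 6.65 TPM with Tat in ΔMye cells. Both Tat groups lay far below F/F PBS, and they overlapped each other. The mean of 88.1 ± 5.68 TPM was 13.3-fold above the 6.62 ± 0.955 TPM of F/F Tat (log2 difference -3.73, SE 0.09, limma adjusted p = 5.16e-18) and 15.2-fold above the 5.81 ± 0.747 TPM of ΔMye Tat. Between the Tat groups the log2 difference was -0.18 (95% interval -0.39 to 0.03, limma adjusted p = 0.122). This last call depended on scaling, since the difference was -0.39 after median-ratio scaling (limma adjusted p = 0.00458).

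Ccr2 was lower with Tat in both genotypes. F/F PBS libraries held 6.52, 5.77, 6.31, 7.28, 6.55 and 5.02 TPM, F/F Tat libraries 0.970, 0.967, 1.53, 0.776, 1.41 and 1.32 TPM, and ΔMye Tat libraries 1.15, 1.43, 1.12, 1.60 and 1.34 TPM. The PBS libraries stood apart, and the Tat groups overlapped. Mean levels were 6.24 ± 0.770, 1.16 ± 0.299 and 1.33 ± 0.20 TPM, which placed F/F PBS 5.37-fold above F/F Tat (log2 difference -2.35, SE 0.15, limma adjusted p = 1.58e-11) and 4.70-fold above ΔMye Tat. The difference between the Tat groups was 0.20 (95% interval -0.13 to 0.53, limma adjusted p = 0.279). After quantile normalization the fall of Ccr2 with Tat was -1.35, under the 3-fold limit and still past the adjusted p. The 5 monocyte markers, a population known for Ccr2, summed to 365 to 396 TPM with PBS, and with Tat to 379 to 421 TPM in F/F cells and 357 to 378 TPM in ΔMye cells.

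Cx3cr1 was at the floor of the table after Tat. Its values were 1.03, 0.892, 0.988, 1.09, 0.963 and 1.13 TPM with PBS, then 0.0606, 0.0518, 0.0218, 0.0483, 0 and 0.0478 TPM in F/F cells with Tat, and 0.281, 0.106, 0.107, 0.122 and 0.0889 TPM in ΔMye cells with Tat. All 3 groups were separate, with the F/F Tat libraries lowest and F/F Tat library 11 listed at 0. The difference between F/F PBS and F/F Tat reached the smallest p that 6 against 6 libraries allow, 0.00216 (exact permutation test, two-sided), and that between the Tat groups, 6 against 5, reached its own smallest p, also 0.00216 (exact permutation test, two-sided). When all genes with a value were fitted without the filter, the limma adjusted p was 2.09e-11 for Tat and 0.00261 for genotype. The size of these differences rests on the constant of 0.1 TPM, which exceeds the level in F/F Tat, so no fold is given. The 5 markers of resident peritoneal macrophages summed to 71.2 to 95.7 TPM with PBS, and with Tat to 84.9 to 99.7 TPM in F/F cells and 39.3 to 66.9 TPM in ΔMye cells, and their part in Cx3cr1 was not tested. Single markers moved in opposite directions with Tat, as Gata6 fell from 1.55 ± 0.182 to 0.282 ± 0.127 TPM while Timd4 rose from 12.7 ± 1.38 to 21.7 ± 1.64 TPM.

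Ccr1 was abundant and overlapped between all groups. It measured 74.7, 76.9, 74.9, 76.6, 70.0 and 68.3 TPM with PBS, then 70.5, 68.9, 69.2, 65.0, 70.3 and 64.3 TPM in the F/F libraries with Tat, and 63.9, 71.5, 70.7, 69.6 and 74.0 TPM in those of ΔMye. The group means were 73.6 ± 3.58, 68.0 ± 2.69 and 69.9 ± 3.75 TPM. The log2 difference with Tat was -0.11 (95% interval -0.20 to -0.03, limma adjusted p = 0.0160) and that between the Tat groups 0.04 (95% interval -0.05 to 0.13, limma adjusted p = 0.442). Relative to the median gene, Ccr1 was higher with Tat, since its difference became 0.52 after median-ratio scaling (limma adjusted p = 2.82e-08), and the sign of the genotype difference turned to -0.17.

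Ccr3 was scarce, and only 5 libraries reached 1 TPM, 2 of F/F PBS, 3 of F/F Tat and none of ΔMye Tat, so it passed the filter only through the groups where it was higher. F/F PBS libraries held 0.838, 0.919, 1.498, 1.48, 0.523 and 0.506 TPM, F/F Tat libraries 1.26, 1.00, 0.609, 0.883, 0.859 and 1.10 TPM, and ΔMye Tat libraries 0.410, 0.408, 0.391, 0.258 and 0.268 TPM. F/F PBS and F/F Tat overlapped throughout, whereas every ΔMye Tat library lay below every F/F library. The means were 0.960 ± 0.440, 0.953 ± 0.225 and 0.347 ± 0.0774 TPM. The Tat difference in F/F cells was 0.07 (95% interval -0.46 to 0.59, limma adjusted p = 0.801), and ΔMye Tat was at 36.4% of F/F Tat (log2 difference -1.22, SE 0.26, limma adjusted p = 5.98e-04) and lower than F/F PBS by -1.16 (limma adjusted p = 5.07e-04). Since the filter favoured these 2 differences, the fit of all genes without it was also read, and gave a limma adjusted p of 0.00120 and 9.55e-04. After quantile normalization the Tat difference was 1.27 (limma adjusted p = 1.29e-04) and the difference between ΔMye Tat and F/F PBS was -0.23 (limma adjusted p = 0.444). The latter was -0.80 after median-ratio scaling and did not pass either (limma adjusted p = 0.0103). Eosinophil markers were near 0 in all groups. The 6 mast cell markers summed to 32.5 to 44.8 TPM in F/F PBS, 30.4 to 41.7 TPM in F/F Tat and 23.6 to 29.9 TPM in ΔMye Tat. For this sum, as for Ccr3, every ΔMye Tat library lay below every F/F library. Among single mast cell markers, Tpsb2 was lower in ΔMye Tat than in F/F Tat without overlap (log2 difference -0.55, limma adjusted p = 2.22e-04), and the others overlapped. F/F PBS libraries 3 and 4, the highest of that group for lymphocyte and mast cell markers, were also its highest for Ccr3. The part of B cell or mast cell RNA in Ccr3 was not tested.

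**Figure D3:**
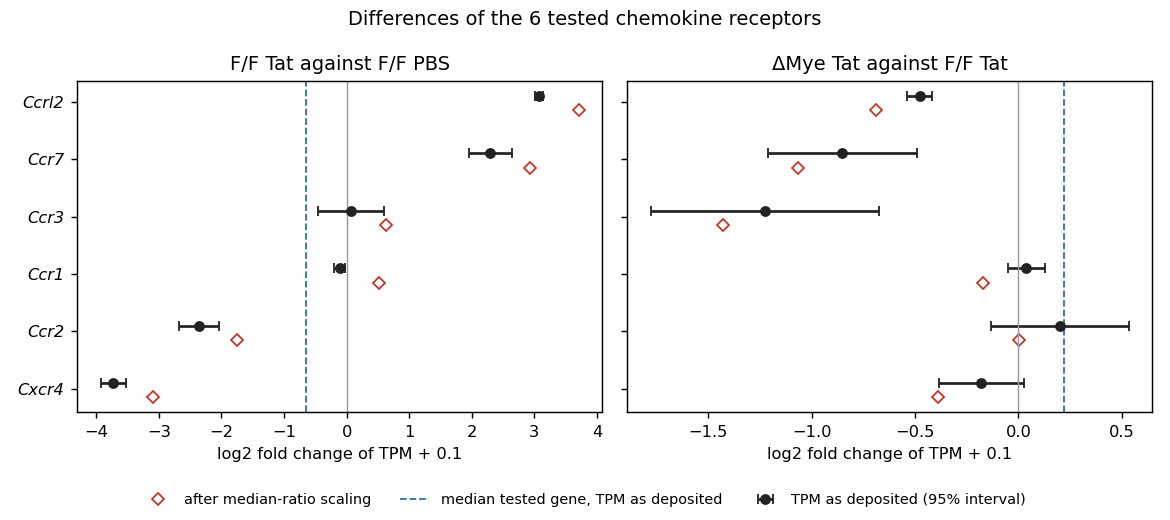
Log2 fold change of TPM + 0.1 (x axis) of the 6 tested receptors, with TPM as deposited (black, 95% interval) and after median-ratio scaling (red diamonds), for the Tat response of F/F cells (left) and for ΔMye against F/F cells under Tat (right); the dashed line is the median tested gene, at -0.65 and 0.22. Ccrl2, Ccr7, Ccr2 and Cxcr4 lie far from 0 on the left under either scale, and Ccrl2, Ccr7 and Ccr3 lie below 0 on the right, whereas Ccr1 changes sign.

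As TPM is corrected for length, levels of the receptors could be ranked within a group. In F/F PBS the order was Ccrl2, Cxcr4, Ccr1, Ccr7, Ccr2, Cx3cr1 and Ccr3, and the libraries of Ccr7 and Ccr2, and of Cx3cr1 and Ccr3, overlapped. In F/F Tat it was Ccrl2, Ccr1, Ccr7, Cxcr4, Ccr2, Ccr3 and Cx3cr1, where only Ccr2 and Ccr3 overlapped as neighbours. ΔMye Tat kept that order, with Ccr3 and Cx3cr1 as the only overlapping neighbours. Cxcr4 thus moved from the place after Ccrl2 to that after Ccr7.

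The genes most like each receptor were sought by the root mean square difference of their log2 values over the 17 libraries, each gene centred on its own mean, among 10447 other genes. Among the nearest to Ccrl2 were Ptges (0.06), the inducible prostaglandin E synthase, and Mlkl (0.10), the effector of necroptosis. Ptges averaged 24.7 TPM with PBS and, with Tat, 204 TPM in F/F cells and 156 TPM in ΔMye cells. Nearest to Ccr7 were Glipr2 (0.27), Il1f9 (0.28), an interleukin-1 family cytokine, and Hilpda (0.28), a lipid droplet protein. Nearest to Cxcr4 were Fbxo32 (0.24), Fam117a (0.26) and Nxpe5 (0.27). These averaged 0.162, 0.295 and 0.0157 TPM in F/F Tat, near or under the constant of 0.1 TPM, so their likeness depends on that constant. Nearest to Ccr2 were Nqo2 (0.20), Fam98c (0.22) and Naa10 (0.22). Ccr3 had no close match, with Pced1b (0.39), Pou2af1 (0.41), a B cell transcriptional coactivator, and Marveld2 (0.41) as nearest. Ccr1 had 1573 genes within 0.2, led by Ywhaq (0.05), Eif3m (0.05) and Nelfe (0.05). For Ccrl2 that number was 32, for Ccr2 it was 1, and for the others it was 0.

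Most of the tested ligands of these receptors rose with Tat. Of 16 listed ligands 10 were tested, of which 7 were called higher with Tat and 1 lower, where 5.21% and 19.4% of all tested genes were called. The median log2 difference of the list was 5.02 against -0.65 for all tested genes. After scaling the calls were 7 and 0. Ccl5, a Ccr1 ligand, rose most, with a log2 difference of 6.19, followed by Ccl7 (5.97), Ccl3 (5.76), Ccl4 (5.17), Ccl2 (5.17), Ccl12 (4.87) and Ccl9 (1.70), all with an adjusted p under 0.01. Ccl6 fell by 1.87 on the log2 scale, and by 1.24 after scaling, under the 3-fold limit. Ccl8 rose by 0.33, under the 3-fold limit, and Ccl24, an eotaxin and Ccr3 ligand, was at 6.66 ± 1.61 and 6.10 ± 1.35 TPM (log2 difference -0.12, limma adjusted p = 0.553, and 0.50 after scaling, limma adjusted p = 0.0212).

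Under Tat, 5 ligands were lower in ΔMye than in F/F cells by the adjusted p and 3 were higher (6 and 2 after scaling), against 8.87% and 38.8% of all tested genes, with a median of -0.24 against 0.22 for all tested genes, and none was called at 3-fold. The Ccr2 ligands Ccl2, Ccl7 and Ccl12 were lower by -1.03, -1.13 and -1.07, Ccl3 by -0.85 and Ccl4 by -0.38. Ccl9 was higher by 0.66, Ccl6 by 0.45 and Ccl8 by 0.27, the last only 0.06 after scaling (limma adjusted p = 0.581). Ccl5 differed by -0.09 (limma adjusted p = 0.0901, and -0.30 after scaling, limma adjusted p = 1.32e-04) and Ccl24 by -0.07. The remaining 6 ligands were untested: Ccl19 and Ccl21a, which bind Ccr7, were listed at 0, and Ccl11, Rarres2 (chemerin), Cx3cl1 (fractalkine) and Cxcl12 averaged under 1 TPM in every group. Ligands of Ccr7, Ccrl2, Cx3cr1 and Cxcr4 were hence at 0 or under 1 TPM on average in these cultures.

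**Figure D4:**
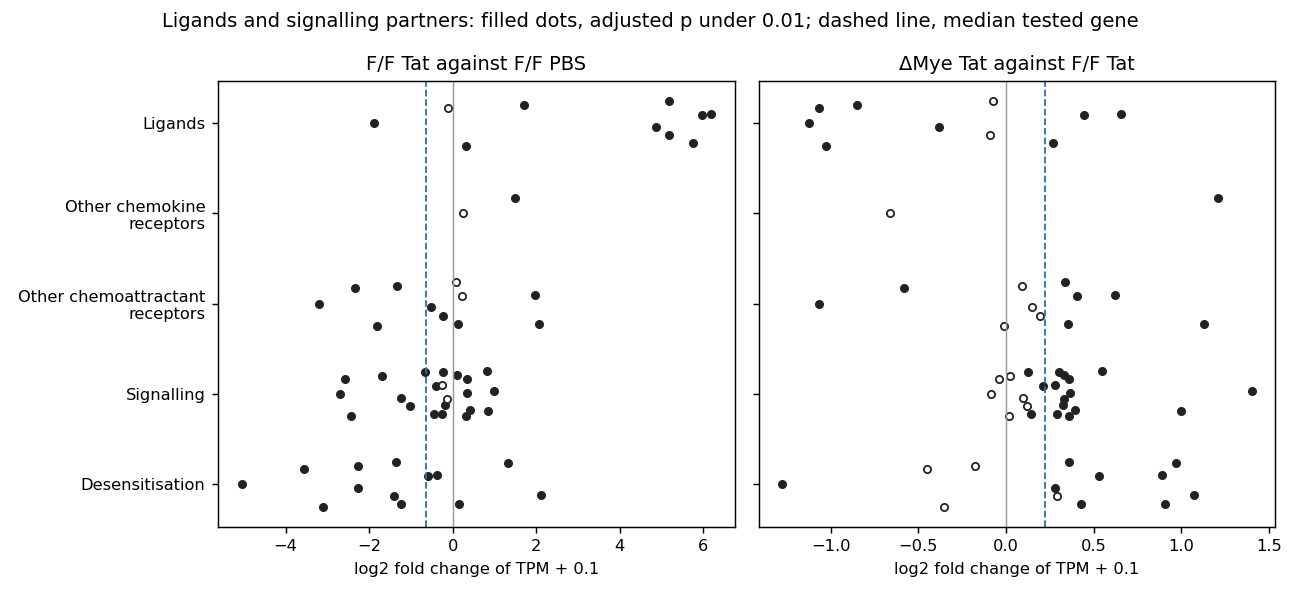
Log2 fold change of TPM + 0.1 (x axis) of each tested gene of 5 lists (rows), for the Tat response of F/F cells (left) and for ΔMye against F/F cells under Tat (right); filled dots passed a limma adjusted p under 0.01, open dots did not, and the dashed line is the median tested gene. Most ligands lie to the right of the other lists with Tat, up to 6.19 for Ccl5, and the desensitisation list reaches -5.05 for Arrb1.

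Of 16 other chemokine receptors in the table, only Cxcr5 and Cxcr6 passed the filter. Cxcr5, a B cell receptor for Cxcl13, rose from 1.59 ± 0.542 to 4.43 ± 0.540 TPM with Tat (log2 difference 1.49, limma adjusted p = 5.76e-06), short of 3-fold, although past it after scaling (2.09). Cxcr5 differed by -0.66 between the Tat groups (limma adjusted p = 0.0244), and by -0.87 after scaling (limma adjusted p = 0.00489). Cxcr6, best known from T and NK cells, was 1.63 ± 0.259 and 1.99 ± 0.408 TPM without and with Tat in F/F cells (limma adjusted p = 0.128, and 5.70e-05 after scaling, with a difference of 0.85) and rose to 4.70 ± 0.870 TPM in ΔMye Tat (log2 difference 1.21, limma adjusted p = 4.13e-06), the group whose T cell markers summed highest.

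Of 12 other chemoattractant receptors, 11 were tested, with 2 called higher and 3 lower with Tat, where 5.21% and 19.4% of all tested genes were called. The median of the list was -0.23, which was 0.40 after scaling with 2 called in each direction. The formyl peptide receptors Fpr2 and Fpr1 rose by 2.07 and 1.97 on the log2 scale, and Gpr183, an oxysterol receptor, differed by 0.22 (limma adjusted p = 0.267) and by 0.81 after scaling (limma adjusted p = 7.80e-04). S1pr1, the sphingosine-1-phosphate receptor of leukocyte egress, fell by 3.19, C5ar2 by 2.35 and the leukotriene B4 receptor Ltb4r1 by 1.81, the last by 1.22 after scaling, under the 3-fold limit. Between the Tat groups, 5 were higher in ΔMye and 2 lower by the adjusted p, where 38.8% of all tested genes were higher and 8.87% lower. After scaling the counts were 3 and 3. Cmklr1, the signalling receptor for chemerin, was 42.2 ± 3.43 and 44.3 ± 2.95 TPM without and with Tat in F/F cells (log2 difference 0.07, and 0.70 after scaling, where it passed the adjusted p), and 97.6 ± 11.8 TPM in ΔMye cells (log2 difference 1.13, limma adjusted p = 1.93e-10), with no overlap. Its direction was opposite to that of Ccrl2, which binds the same ligand. S1pr1 was higher by 0.62, Ltb4r1 lower by -1.07 and Fpr1 lower by -0.58, all past the adjusted p.

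All 22 listed signalling genes below the receptors were tested. None was called higher with Tat and 4 were called lower (1 and 3 after scaling), where 5.21% and 19.4% of all tested genes were called. The median of the list was -0.24 against -0.65 for all tested genes. By the adjusted p alone 8 rose and 12 fell, where 17% of all tested genes rose and 67.6% fell, and this split was 15 and 6 after scaling. Fgr, a Src family kinase, fell by 2.69, the phospholipase Plcb2 by 2.58 and Dock2, a Rac activator needed for leukocyte migration, by 2.44. Gng12 and Lyn were among the highest, at 0.98 and 0.81, both past the adjusted p, and Gng12 also passed the 3-fold limit after scaling (1.61). In ΔMye Tat 16 of the 22 were higher than in F/F Tat by the adjusted p and none was lower, where 38.8% of all tested genes were higher and 8.87% lower, and the counts were 5 and 3 after scaling. The median was 0.30 beside 0.22 for all tested genes. Fgr (1.40) and Plcb2 (1.00) led, and Plcb3 (-0.08) and Lyn (-0.04) were lowest and did not pass, though both did after scaling, at -0.29 and -0.25.

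Of 13 tested genes that shut receptor signals off, 1 was called higher with Tat and 5 lower (2 and 5 after scaling), where 5.21% and 19.4% of all tested genes were called. The median of the list was -1.37 against -0.65. By the adjusted p 3 rose and 10 fell (4 and 8 after scaling), where 17% of all tested genes rose and 67.6% fell, so that this share was near the background. Arrb1, a β-arrestin that uncouples and internalises receptors, dropped from 23.7 ± 2.32 to 0.627 ± 0.163 TPM (log2 difference -5.05, limma adjusted p = 4.84e-17). Arrb2, the other β-arrestin listed, was more abundant, at 87.9 ± 5.30 TPM with PBS and 37.0 ± 2.03 TPM with Tat in F/F cells (log2 difference -1.25). In ΔMye Tat, Arrb2 was at 68.7 ± 4.37 TPM. Rgs18 fell by 3.57 with Tat and Rgs2 by 3.10, both regulators that speed the shut-off of G proteins. Rgs1 rose by 2.11, Rgs14 by 1.33 (1.96 after scaling, past the 3-fold limit) and Grk2, a receptor kinase, by 0.15. Between the Tat groups 8 were higher and 1 was lower in ΔMye Tat by the adjusted p (6 and 2 after scaling), against 38.8% and 8.87% of all tested genes, and none was called. Grk5 was higher by 1.08 and Arrb1 by 0.97. Rgs14 was 20.6 ± 0.949, 52.0 ± 1.44 and 21.4 ± 1.28 TPM in the 3 groups in turn, a log2 difference of -1.28 between the Tat groups (limma adjusted p = 4.30e-14), while Rgs2 differed by -0.45 (limma adjusted p = 0.0275, and 0.00309 after scaling, at -0.65).

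ΔMye Tat was also set against F/F PBS, a comparison that shares its libraries with the other comparisons and in which genotype and treatment both differ. Of the tested receptors, Ccrl2 was called higher, against a background of 4.38%, and Cxcr4 and Ccr2 were called lower, against 11.1%. By the adjusted p alone Ccrl2 and Ccr7 were higher, against 17.5%, and Cxcr4, Ccr2 and Ccr3 lower, against 58.8%. The same 5 did not overlap between the groups, against 14.8% of tested genes higher and 52.8% lower without overlap. The log2 differences were 2.60 for Ccrl2, 1.44 for Ccr7, -3.91 for Cxcr4, -2.15 for Ccr2, -1.16 for Ccr3 and -0.07 for Ccr1.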

How the data were processed

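Peritoneal macrophage RNA was sequenced by the study, and the authors deposited 1 table of TPM values, made with Salmon against Ensembl transcripts of mm10 (GRCm38) and merged to gene symbols. Read counts and depths were not used here, so the count-based edgeR test of the study could not be repeated, and no interval for counting error is given. The methods state 4 days between thioglycollate and collection and the labels 3.

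The 10451 of 21683 rows that reached 1 TPM in 5 or more of the 17 libraries entered limma 3.58.1 on log2(TPM + 0.1) (R 4.3.3; a single fit of 3 groups, 14 residual degrees of freedom, trended prior), adjusted by Benjamini-Hochberg over all of them. Calls used the limits of the study, 0.01 for the adjusted p and 3 for the fold. The fit was tested on simulated data. Single values were tested by exact permutation over libraries. The receptors, gene lists and markers were chosen with earlier results of these data known. All receptors and ligands are named. From each other list, the named genes are the 3 highest and 3 lowest with Tat and the 2 highest and 2 lowest between genotypes. Arrb2 is named beside Arrb1, outside this rule. Desensitisation held 16 symbols, of which 14 matched a row (the others are older names of Grk2 and Grk3). The fit was repeated with each library left out, with quantile normalization, with median-ratio scaling, with only the groups compared, with a constant of 0.5 or 1, and with the filter removed or raised to 5 TPM. An allele that all groups share, and some genes that the naming rule picked, are not reported here. Promoter runs came from RefSeq (GRCm38.p6). Scripts used Python 3.11.15.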

Additional observations from a re-analysis of the deposited data

Results flagged for a closer look

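Cx3cr1 in ΔMye Tat library 19 was 0.281 TPM, above the other 4 libraries of the group, which lay between 0.0889 and 0.122 TPM. The gap to the nearest library took 0.829 of the range of the group, past the 95% limit of Dixon's test for 5 samples. Without it, the group still lay above every F/F Tat library, the highest of which was at 0.0606 TPM. Library 19 also had the highest sum of T cell markers, 7.47 TPM, whose part was not tested. This was 1 of 21 checks of receptor and group, and chance flags about 1 in 20.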

How the results depend on the processing

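No paired analysis was possible because the library numbers run on across the groups (1 to 6, 7 to 12, 19 to 23) and none is shared. The calls of Ccrl2, Ccr7 and Cxcr4 with Tat held under each alternative, as did the lower Ccrl2 and Ccr7 of ΔMye Tat against F/F Tat by the adjusted p. Against F/F Tat, the lower Ccr3 of ΔMye Tat held under each alternative in which Ccr3 was tested. With the filter in place, Ccr3 entered only through F/F libraries, which favoured this difference. Without the filter its limma adjusted p was 0.00120. Against F/F PBS, the lower Ccr3 of ΔMye Tat no longer passed after median-ratio scaling (-0.80, limma adjusted p = 0.0103) or quantile normalization (-0.23, limma adjusted p = 0.444). Ccr3 was not tested with the filter at 5 TPM, without F/F PBS libraries 3 and 4 (an alternative chosen after seeing the data), or without some single libraries. Of receptor differences under the alternatives, 412 kept direction and side of the adjusted p, 9 reversed, 6 came to pass and 2 no longer passed. Ccr1 reversed with Tat after median-ratio scaling (0.52) and quantile normalization (0.082), between the Tat groups (-0.17 and -0.067) and for ΔMye Tat set against F/F PBS (0.35 and 0.015), and Ccr2 between the Tat groups after quantile normalization (-0.10). Ccr3 with Tat reversed without F/F PBS replicate 5 or 6 (-0.064 and -0.072), and with single libraries left out it ranged from -0.072 to 0.18. Receptors called lower went from 2 to 1 after quantile normalization, both with Tat and when ΔMye Tat was set against F/F PBS, and to 3 without the filter, where Cx3cr1 was added in both, and receptors called higher in the latter went from 1 to 2 after median-ratio scaling, after quantile normalization and without F/F PBS libraries 3 and 4. With Tat, 2031 genes were called lower, against 1197 with a pseudocount of 1, 1281 with the filter at 5 TPM, 1020 after median-ratio scaling and 826 after quantile normalization, and 545 higher, against 889 and 867 after these scalings. Between the Tat groups, 46 genes were called higher, against 15 and 10 with pseudocounts of 0.5 and 1, 18 with the filter at 5 TPM, 27 after median-ratio scaling and 16 after quantile normalization, and 33 lower, against 20 with a pseudocount of 1 and 63 and 55 after the scalings. ΔMye Tat against F/F PBS gave 1165 lower, against 601 with a pseudocount of 1, 689 with the filter at 5 TPM and 655 and 544 after the scalings. The filter tests fewer genes, and the cause of the other shifts was not tested. With single libraries left out, genes called ranged from 533 to 556 higher and 1941 to 2039 lower with Tat, 36 to 48 and 28 to 38 between the Tat groups, and 447 to 462 and 1113 to 1192 when ΔMye Tat was set against F/F PBS. Ccr1 with Tat came to pass the adjusted p of 0.01 without F/F PBS replicate 6 (limma adjusted p = 0.00569) or ΔMye Tat replicate 19 (limma adjusted p = 0.00882), and Cxcr4 between the Tat groups without F/F Tat replicate 8 (limma adjusted p = 0.00967). Unknown depth limits what can be said of Ccr3 and Cx3cr1, which lie near or under 1 TPM.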
